A study of Sus scrofa with 45 samples.

Results

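Chemokines of blood leukocytes and 1 chemokine receptor are described here. The members were the ligands CXCL10, CCL3L1, CCL4, CCL5 and CCL2 and the receptor CXCR4. A probe that was not a control counted as a member when its gene name, its RefSeq identifier or its description named 1 of these genes. This gave 6 of the 1929 gene names on the array and 10 of its 43603 probes. CCL2 had 3 probes, CXCL10 and CCL5 had 2 each, and CCL3L1, CCL4 and CXCR4 had 1 each. A RefSeq transcript named 7 of the 10 probes, for 5 of the genes, and both probes of CCL5 were named otherwise.

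The study followed diet-induced hyperlipidemia in male miniature pigs by expression arrays of their blood. RNA from 45 blood samples was labelled with Cy3 and hybridized, 1 sample per array. All animals were Clawn miniature pigs that were 12 weeks old when feeding began, per the study's methods, which name 5 pigs per diet. Control pigs ate standard feed, HFCD pigs a diet with 15% lard and 2% cholesterol, and HFCSD pigs the same with 37% sucrose added. Whole blood, preserved in PAXgene tubes, was taken after 10, 19 and 27 weeks of feeding from each diet, which made 9 groups. White blood cells, caught on LeukoLock filters, were taken after 27 weeks from each diet, which made the other 3 of the 12 groups. There were 4 arrays in 9 of the groups and 3 arrays in whole blood of HFCSD pigs at 19 weeks and of HFCD and HFCSD pigs at 27 weeks. Which pig of each diet was not arrayed, and whether a replicate number marks the same pig in several groups, is not stated. Age and feeding period moved together in this design. Per array, 35.4% to 53.3% of 43803 spots with probes gave signal well above background.

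Chemokines are small secreted proteins that direct leukocytes along gradients through receptors coupled to G proteins. In blood they are made by monocytes, lymphocytes, granulocytes and platelets, many of them after interferon, bacterial products or activation through antigen receptors. CXCR4 keeps leukocytes in the bone marrow and guides their return there and to tissues, through its ligand CXCL12.

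A level below is the log2 of a probe's intensity after quantile normalization over the 45 arrays, and a change is a difference between mean levels. Changes were tested with limma, and a probe passed when its p adjusted over all probes tested in that comparison was under 0.05. These p-values measure the spread between samples, and the number of arrays limits their precision. With 5 pigs per diet and 3 or 4 arrays per group, some pigs must recur between feeding periods and between sample types. The main fits took all arrays as independent, so tests of period and sample type ignore this repeated sampling. Agreement of a change across periods and sample types does not come from separate animals. Levels of different probes are not compared with each other, since probes bind with different strength. In blood samples, fewer cells of a type and less RNA per cell cannot be told apart.

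The brighter CXCL10 probe (A_72_P165266), the CCL4 probe (A_72_P223332), the brighter CCL5 probe (A_72_P372628) and the CXCR4 probe (A_72_P088501) were well above background on all 45 arrays. The CCL3L1 probe (A_72_P035356) was so on 44 arrays, all but 1 HFCD array of whole blood at 19 weeks. The dimmer CXCL10 probe (A_72_P099341) was well above background on 27 arrays and the dimmer CCL5 probe (A_72_P412578) on 15. The 3 CCL2 probes were well above background on 1, 0 and 3 arrays.

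The readings of CXCL10, CCL3L1, CCL4 and CXCR4 rest on single designed oligonucleotides of 60 bases, or on a pair of them for CXCL10. The 4 sequences here, from the array's annotation, show the stretch of transcript that these probes read. For CXCL10 it is that of the dimmer probe. The brighter CXCL10 probe, on which most CXCL10 values below rest, reads another stretch that is not shown and shares a run of at most 6 bases with it. In the CCL4 probe the capitals mark the stop codon that ends its reading frame.
CXCL10 A_72_P099341: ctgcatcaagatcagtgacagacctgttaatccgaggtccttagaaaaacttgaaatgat
CCL3L1 A_72_P035356: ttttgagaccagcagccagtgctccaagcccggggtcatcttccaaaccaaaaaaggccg
CCL4 A_72_P223332: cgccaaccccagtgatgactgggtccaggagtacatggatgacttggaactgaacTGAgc
CXCR4 A_72_P088501: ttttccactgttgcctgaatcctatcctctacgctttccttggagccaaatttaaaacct
Member probes shared runs of at most 8 bases with each other, so CCL3L1 and CCL4 were read by unlike sequences. In the RefSeq annotation of assembly Sscrofa11.1 these 2 genes are neighbours on chromosome 12. That chromosome also carries CCL2 and CCL5, while CXCL10 lies beside CXCL11 on chromosome 8 and CXCR4 lies on chromosome 15. The dimmer CCL5 probe shared 24 bases in a row with another probe, so its signal may not be of CCL5 alone.

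The first question was how the members differed between pigs on each diet and the control pigs of the same sample type and feeding period. CXCL10, which attracts activated T cells and natural killer cells through CXCR3 and is induced by interferons, had a higher mean in the diet group in all 8 comparisons. The change of its brighter probe ran from 1.58 in white blood cells of HFCSD pigs to 4.03 in whole blood of HFCD pigs at 19 weeks. CCL3L1, a ligand that attracts monocytes and lymphocytes, had a lower mean in the diet group in all 8, with changes from -2.13 to -0.17, of which those with HFCD at 10 weeks and in white blood cells turned direction when 1 array was left out. Changes of CCL4, of the brighter CCL5 probe and of CXCR4 lay between -0.75 and 0.65.

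None of these changes passed: limma called 0 of 46 tests of member probes in the 8 comparisons, with 14 at an unadjusted p under 0.05. Of all probes, 1.73% to 32.2% per comparison had such a p. By the methods' t-test 10 were called when an unadjusted p and a fold of 2 were asked for, beside 22 to 2126 of all probes per comparison, and 0 after adjustment. Over all probes tested, limma called 0.0281% for HFCD and 0.0123% for HFCSD at 10 weeks. At 19 weeks it called 0.0181% for HFCD and 0.0175% for HFCSD. In whole blood at 27 weeks it called 0.0165% for HFCD and 10.6% for HFCSD, and in white blood cells 0.0276% for HFCD and 0.0366% for HFCSD. With all 45 arrays in 1 fit, 6 member tests passed, those of CCL3L1 and of both CXCL10 probes at 19 weeks in each diet. The dimmer CXCL10 probe entered its tests at 19 weeks only through the diet groups, where it was high, so its 2 calls add nothing to those of the brighter probe. Of all probes in those comparisons of that fit, 530 of 16615 passed for HFCD and 330 of 17178 for HFCSD. HFCD and HFCSD changes share their control arrays, and some pigs recur between periods and sample types, so the 8 comparisons are not independent. The median change of the 5 to 7 member probes tested ran from -0.40 in whole blood of HFCSD pigs at 27 weeks to 0.57 in HFCD pigs at 10 weeks. These counts and medians include dim probes that entered only through the group where they were high, so they are descriptions. The median over all probes tested ran from -0.21 to 0.09 in the same comparisons.

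In whole blood at 10 weeks, CXCL10 read 6.87, 6.32, 5.39 and 6.10 in the control arrays and 11.16, 7.26, 9.63 and 8.55 in the HFCD arrays by its brighter probe. In the HFCSD arrays of that period it read 7.51, 9.29, 7.87 and 6.71. All 4 HFCD arrays were above every control array, as were 3 of the 4 HFCSD arrays. The mean was 7.88-fold higher with HFCD (log2 change 2.98 ± 0.73 SE, adjusted p = 0.235) and 3.19-fold higher with HFCSD (1.68 ± 0.73, adjusted p = 1). Leaving out 1 array moved the HFCD change to between 2.31 and 3.61, and with normexp background correction, which pulls dim signals together, the changes were 2.17 and 1.08. Within each of the 3 slides that held both, the diet array was higher than control, by 2.12 to 4.29 for HFCD and 0.96 to 1.55 for HFCSD.

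At 19 weeks the same probe read 6.84, 6.49, 6.93 and 7.23 in the control arrays and 13.60, 9.24, 10.71 and 10.07 in the HFCD arrays. The 3 HFCSD arrays read 8.72, 11.36 and 11.07. Every array of either diet was above every control array, and HFCD replicate 1 carried the highest whole blood level of all. The mean was 16.4-fold higher with HFCD (4.03 ± 0.83, adjusted p = 0.121) and 11.4-fold higher with HFCSD (3.51 ± 0.90, adjusted p = 0.249). Leaving out 1 array moved these changes to between 3.14 and 4.59 and between 3.03 and 4.34, and the HFCD change was 4.66 with the percentage of bright spots as a covariate. In the fit of all 45 arrays these adjusted p were 0.00981 and 0.0426. Control replicates 2 to 4 were scanned on a day of their own, and only 1 slide held both a control and a diet array. On that slide HFCD was higher by 2.40, and with slide as a fixed block the changes were 2.40 for HFCD and 1.32 for HFCSD. With scan day as a block they were 4.06 and 3.54. With either block the only control array that counts is replicate 1, so these changes rest on 1 control array.

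In whole blood at 27 weeks CXCL10 read 8.49, 6.62, 6.01 and 7.17 in the control arrays, 9.16, 9.95 and 10.91 in the HFCD arrays and 8.63, 8.28 and 9.98 in the HFCSD arrays. The 3 HFCD arrays were above every control array, as were 2 of the 3 HFCSD arrays. The mean was 7.62-fold higher with HFCD (2.93 ± 0.62, adjusted p = 0.802) and 3.7-fold higher with HFCSD (1.89 ± 0.62, adjusted p = 0.0717). With normexp correction the HFCD change was 2.34. Both slides that held the groups together gave higher diet levels, by 2.11 to 3.41 for HFCD and 1.66 to 3.29 for HFCSD.

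White blood cells of control pigs read 9.02, 8.22, 10.79 and 7.70 for CXCL10, those of HFCD pigs 9.63, 14.09, 11 and 11.30 and those of HFCSD pigs 9.16, 12.12, 10.00 and 10.77. The diet groups overlapped the control group, with 3 HFCD arrays and 1 HFCSD array above every control array. The mean was 5.95-fold higher with HFCD (2.57 ± 0.93, adjusted p = 0.978) and 2.99-fold higher with HFCSD (1.58 ± 0.94, adjusted p = 0.561). Leaving out 1 array moved these changes to between 1.71 and 3.20 and between 1.04 and 2.20. Within slides, HFCD was higher on 3 of 3 by 2.25 to 3.30, and HFCSD was higher on 2 of 3, from -0.82 to 3.76.

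The dimmer CXCL10 probe in whole blood was well above background on 1 of 12 control arrays, 10 of 11 HFCD arrays and 5 of 10 HFCSD arrays. At 19 weeks it read 8.01, 4.68, 6.67 and 4.78 in the HFCD arrays and 4.69, 6.75 and 5.86 in the HFCSD arrays, and it was not well above background on any control array. It was thus tested only because the diet groups were bright, and its p-values are not given. Where every array of a group was dim, the fold is a lower bound, taken against the lowest normalized level that was well above background on each dim array or the level itself if higher. By that bound the mean was at least 5.18-fold higher with HFCD (4 of 4 arrays above every control) and at least 4.3-fold higher with HFCSD (3 of 3 arrays). At 27 weeks the HFCD arrays read 4.91, 5.58 and 6.44 and 1 of 4 control arrays was well above background, at 3.81. This control group was mostly dim, and no change or fold is given against it. In white blood cells it was well above background on 3 of 4 control arrays and on all 4 of each diet. It was thus again tested only through the diet groups, and neither changes nor p-values are given.

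**Figure D1:**
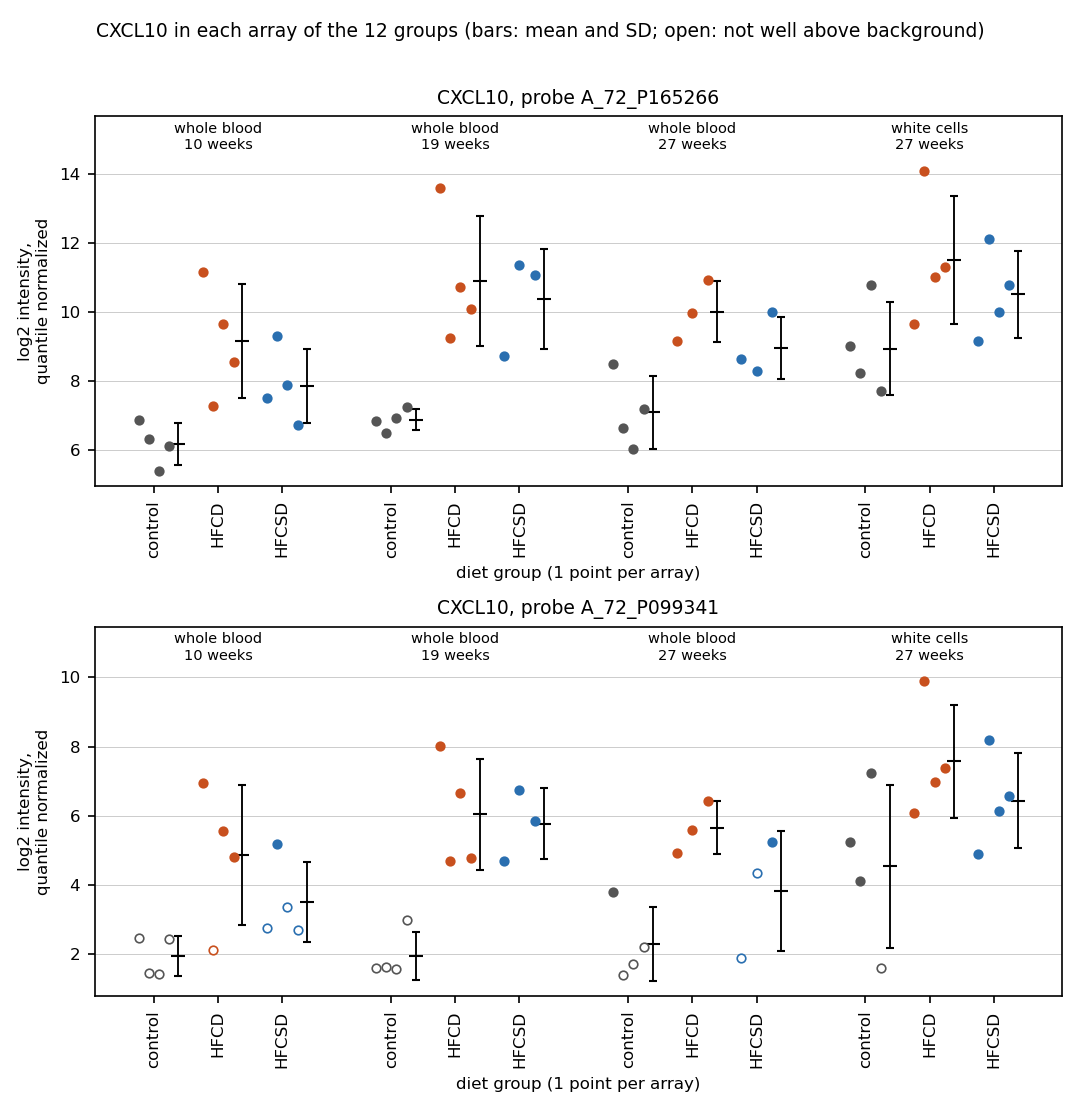
CXCL10 levels by its brighter (top) and dimmer probe (log2 of the normalized intensity, vertical axes) in the 12 groups of sample type, feeding period and diet, with 1 point per array, open where not well above background, and bars for mean and SD. By the brighter probe the 7 diet arrays of whole blood at 19 weeks lie between 8.72 and 13.60 and the 4 control arrays between 6.49 and 7.23.

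Across the 12 groups the order of CXCL10 means (± SD over the 3 or 4 arrays) began with white blood cells of HFCD pigs at 11.50 ± 1.87 and whole blood of HFCD pigs at 19 weeks at 10.90 ± 1.89. White blood cells of HFCSD pigs (10.51 ± 1.26), whole blood of HFCSD pigs at 19 weeks (10.38 ± 1.45) and of HFCD pigs at 27 weeks (10.00 ± 0.88) came next. HFCD whole blood at 10 weeks (9.15 ± 1.66), HFCSD whole blood at 27 weeks (8.96 ± 0.90) and white blood cells of control pigs (8.93 ± 1.35) lay in the middle. The lowest were HFCSD whole blood at 10 weeks (7.85 ± 1.08) and whole blood of control pigs at 27 (7.08 ± 1.06), 19 (6.87 ± 0.31) and 10 weeks (6.17 ± 0.61). Only the gap between the last 2 groups, 0.70, was larger than the larger SD of the neighbours. With scaling to the 75th percentile 21 of 120 group levels of member probes moved by more than 1 SD, by up to 0.65, so orders of group means here and below hold for the scale used. All 3 whole blood control groups stood at the bottom of the order. The dimmer probe ran from 7.57 ± 1.63 in white blood cells of HFCD pigs, 6.44 ± 1.36 in those of HFCSD pigs and 6.04 ± 1.60 in HFCD whole blood at 19 weeks to 2.29 ± 1.07, 1.95 ± 0.57 and 1.95 ± 0.69 in control whole blood at 27, 10 and 19 weeks. HFCSD at 19 (5.77 ± 1.03), HFCD at 27 (5.65 ± 0.77) and 10 weeks (4.86 ± 2.03), control white blood cells (4.54 ± 2.36) and HFCSD at 27 (3.82 ± 1.74) and 10 weeks (3.50 ± 1.15) lay between. The lowest of these means held levels that were mostly not well above background, so gaps between them were not read.

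CCL3L1 read 6.53, 6.82, 6.40 and 6.38 in whole blood of control pigs at 10 weeks, 5.25, 7.17, 6.71 and 6.33 in HFCD pigs and 5.30, 5.23, 6.25 and 6.01 in HFCSD pigs. Every HFCSD array was below every control array, while the HFCD arrays lay on both sides. The HFCSD mean was 1.79-fold lower (log2 change -0.84 ± 0.36, adjusted p = 1) and was lower than control within each of 3 slides, from -1.27 to -0.38. The HFCD change was -0.17 ± 0.37 (adjusted p = 0.869), and without HFCD replicate 1 it was 0.20.

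At 19 weeks CCL3L1 read 7.67, 6.96, 8.32 and 8.23 in the control arrays, 5.64, 6.45, 6.20 and 4.38 in the HFCD arrays and 5.77, 5.54 and 5.77 in the HFCSD arrays. The HFCD level of 4.38 was not well above background. No diet array reached the lowest control array. The mean was 4.38-fold lower with HFCD (-2.13 ± 0.44, adjusted p = 0.121, 4 of 4 arrays below every control) and 4.3-fold lower with HFCSD (-2.10 ± 0.48, adjusted p = 0.219, 3 of 3 arrays). In the fit of all 45 arrays the adjusted p were 0.00972 and 0.0239. On the 1 slide that held a control and an HFCD array the difference was -1.22, and with slide as a fixed block the changes were -1.22 and -0.93. With scan day as a block they were -2.01 and -1.98. Both blocks leave control replicate 1 as the only control array, so these changes rest on 1 control array.

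At 27 weeks CCL3L1 in whole blood read 8.24, 6.55, 7.75 and 7.81 in the control arrays, 6.13, 7.81 and 6.04 in the HFCD arrays and 7.05, 6.52 and 7.26 in the HFCSD arrays. The groups overlapped, and the changes were -0.93 ± 0.49 (adjusted p = 0.928, 2 of 3 HFCD arrays below every control) and -0.65 ± 0.49 (adjusted p = 0.369, 1 of 3 HFCSD arrays). With slide as a fixed block they were -0.44 and -0.29, and the HFCSD change was -1.11 with the percentage of bright spots as a covariate. Leaving out 1 array moved them to between -1.51 and -0.62 and between -0.99 and -0.43. In white blood cells it read 8.71, 7.55, 6.94 and 7.69 in control pigs, 7.48, 7.15, 8.13 and 7.15 in HFCD pigs and 5.94, 7.10, 7.93 and 6.60 in HFCSD pigs. These 3 groups overlapped too, with changes of -0.24 ± 0.44 and -0.83 ± 0.44 (adjusted p = 0.997 and 0.509). They were -0.16 and -0.55 with slide as a fixed block. When 1 array was left out they lay between -0.50 and 0.09 and between -1.17 and -0.50.

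By mean, CCL3L1 was highest in whole blood of control pigs at 19 weeks (7.80 ± 0.62 SD), followed by white blood cells of control pigs (7.72 ± 0.73), whole blood of control pigs at 27 weeks (7.59 ± 0.73) and white blood cells of HFCD pigs (7.48 ± 0.46). Next were HFCSD whole blood at 27 weeks (6.94 ± 0.38), HFCSD white blood cells (6.89 ± 0.84) and HFCD whole blood at 27 weeks (6.66 ± 1.00). Control whole blood at 10 weeks (6.53 ± 0.20) and HFCD whole blood at 10 weeks (6.36 ± 0.82) came before the lowest 3, HFCSD at 10 weeks (5.70 ± 0.51), HFCSD at 19 weeks (5.69 ± 0.14) and HFCD at 19 weeks (5.67 ± 0.92).

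CCL4, a ligand that attracts monocytes and T cells, had 8 changes against control. They ran from -0.15 ± 0.31 in HFCSD pigs to 0.57 ± 0.31 in HFCD pigs, both in whole blood at 10 weeks, with adjusted p of 1 and 0.541. No diet group was free of overlap with its control group. The HFCSD changes at 10 and 19 weeks and in white blood cells turned direction when 1 array was left out, within ranges of -0.34 to 0.13, -0.44 to 0.32 and -0.21 to 0.31. With slide as a fixed block the HFCD change at 19 weeks turned from 0.39 to -0.13, and the HFCSD change went from -0.11 to -0.70. Both of these rest on control replicate 1, the only control array of that period on a slide with a diet array. With the percentage of bright spots as a covariate the HFCSD change in whole blood at 27 weeks went from 0.30 to 0.91. None of these passed.

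CCL5, which attracts T cells, monocytes and eosinophils, read 7.72, 8.85, 8.43 and 9.70 in control whole blood at 19 weeks by its brighter probe. The HFCD arrays of that period read 10.36, 8.59, 9.13 and 8.29 and the HFCSD arrays 8.54, 10.26 and 8.87, so that the 3 groups overlapped. These changes of 0.42 and 0.55 became 1.37 and 1.51 with scan day as a block, without passing. That block leaves only control replicate 1, the lowest control array at 7.72, so the larger values rest on 1 control array. Over the 8 comparisons its changes ran from -0.40 ± 0.44 in HFCSD whole blood at 27 weeks to 0.65 ± 0.41 in HFCD white blood cells. When 1 array was left out these 2 lay between -0.67 and -0.12 and between 0.17 and 1.04, and the HFCD change of 0.58 at 10 weeks between 0.27 and 1.23. The HFCD changes at 19 and 27 weeks and the HFCSD change at 10 weeks turned direction, within -0.01 to 0.76, -0.37 to 0.41 and -0.20 to 0.53. In white blood cells the control arrays read 9.40, 9.34, 9.31 and 9.47, a narrow range that 3 of the 4 HFCD arrays (9.87, 11.46, 9.92) and 3 of the 4 HFCSD arrays (10.10, 9.92, 10.21) exceeded. Adjusted p for these were 0.997 and 0.657.

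CCL2, which attracts monocytes through CCR2, was not well above background on most arrays, so no change of it was tested. Probe A_72_P035346 was well above background in white blood cells of control replicate 1 (3.71) and HFCD replicates 1 and 2 (3.69 and 5.12). Probe A_72_P412643 was so in HFCD replicate 2 alone (3.98), and A_72_P122341 on no array, with levels from 1.43 to 3.02. White blood cells of HFCD replicate 2, the array with the highest CXCL10 level of all (14.09), was thus the only 1 on which more than 1 CCL2 probe was bright. Group means of A_72_P035346 ran from 3.63 ± 1.40 SD in white blood cells of HFCD pigs and 3.13 ± 0.52 in those of control pigs to 1.60 ± 0.08 in control whole blood at 27 weeks. The other 2 probes had group means from 1.62 to 2.81 and from 1.50 to 1.91. Most of these levels were not well above background, so the groups were not ranked by them.

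The receptor CXCR4 had diet changes from -0.75 ± 0.42 in white blood cells of HFCSD pigs to 0.30 ± 0.51 in HFCD whole blood at 19 weeks (adjusted p = 0.529 and 0.858). Its level in white blood cells was lower than control within each of 3 slides for both diets, by -0.68 to -0.39 for HFCD and -1.02 to -0.41 for HFCSD. At 19 weeks the direction turned when a block was fitted, but with either block the only control array that counts is replicate 1. That array had the highest control level, 9.46, and the only control on a scan day or slide with diet arrays. With scan day as a block the changes were -0.92 for HFCD and -0.97 for HFCSD, and with slide as a fixed block -0.57 and -0.50. Whether batch had a part was not tested. Without a block, leaving out 1 array moved the changes to between 0.04 and 0.70 for HFCD and between -0.19 and 0.74 for HFCSD. In HFCSD whole blood at 27 weeks the change was -0.63 ± 0.41 (adjusted p = 0.293). With slide as a fixed block it was -1.04, and within the 2 slides that held both groups it ran from -1.59 to -0.42. It became 0.11 when each array's percentage of bright spots (well above background) was a covariate. That percentage was 38.8% to 39.7% in the HFCSD arrays and 38.9% to 50.2% in the control arrays.

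**Figure D2:**
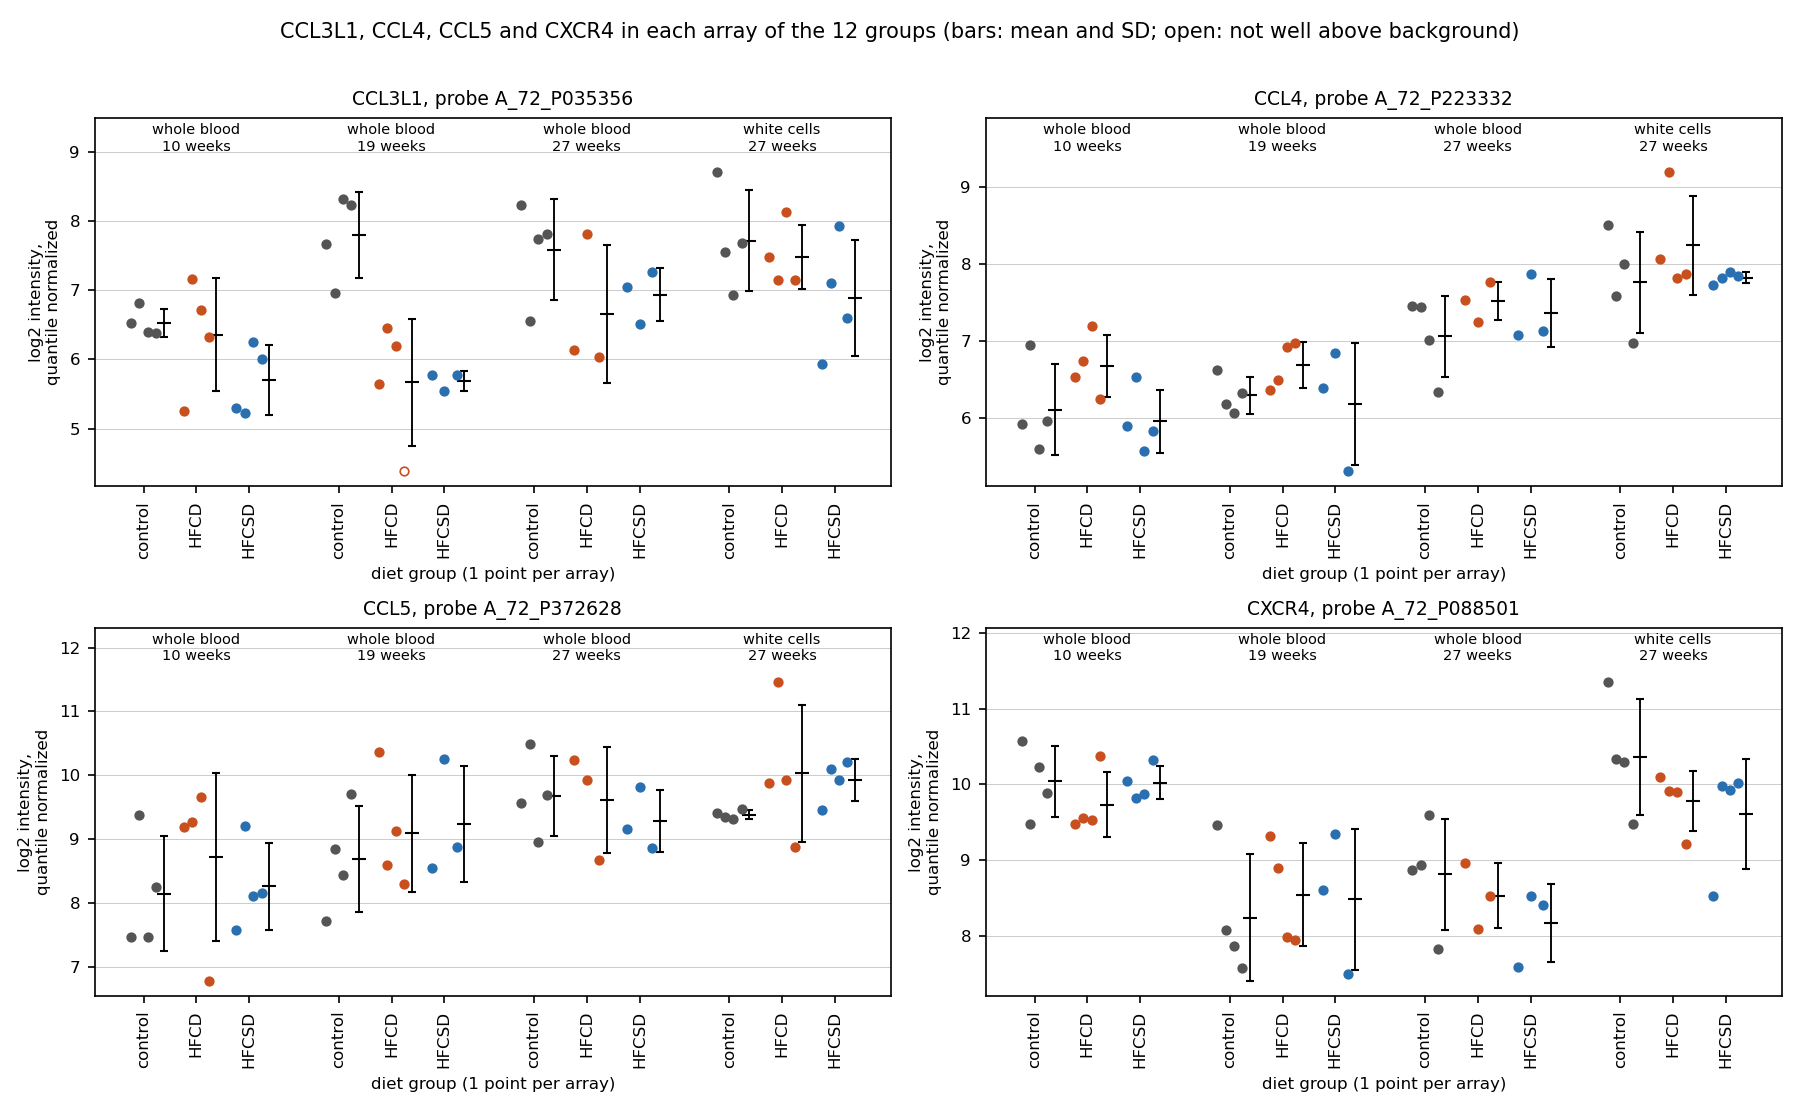
Levels of CCL3L1, CCL4, CCL5 (brighter probe) and CXCR4 (log2 of the normalized intensity, vertical axes) in the 12 groups, with 1 point per array and a bar for the mean with 1 SD either side. CXCR4 means lie between 9.73 and 10.04 in whole blood at 10 weeks and between 8.17 and 8.81 at 19 and 27 weeks.

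Other chemokine genes on the array were 17 of 38 ligands (22 probes) and 16 of 22 receptors (17 probes). None of the ligand or receptor probes tested passed in 7 of the 8 diet comparisons by limma, in which 7 ligand and 9 receptor tests had an unadjusted p under 0.05. In HFCSD whole blood at 27 weeks, where 1161 of all 17135 probes tested passed higher and 663 lower, 2 of 7 ligand probes and 3 of 14 receptor probes passed, all higher. They were CCL19 (1.45, adjusted p = 0.0414) and CCL25 (1.45, adjusted p = 0.0493), and the receptors CCR4 (3.29, adjusted p = 0.0295), CXCR3 (1.80, adjusted p = 0.0261), which binds CXCL10, and ACKR1 (1.46, adjusted p = 0.0298). CCL8, a ligand related to CCL2, had an HFCD change of 2.15 in white blood cells (adjusted p = 0.55). In control whole blood it was well above background on 1, 2 and 2 of 4 arrays at 10, 19 and 27 weeks, against every HFCD array, so no change is given there.

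Of 23 genes that signal downstream of chemokine receptors 8 were on the array (15 probes), and of 16 inducers of chemokine transcription 13 were (24 probes). In HFCSD whole blood at 27 weeks, where 10.6% of all probes passed, 1 of 12 signalling probes did, RGS2 (-1.36, adjusted p = 0.041), and among the inducers IRF7 (2.14, adjusted p = 0.031), which acts in interferon responses. None passed in the other 7 diet comparisons. RGS1, a brake on receptor signalling, had changes of 1.71 and 1.79 at 19 weeks (adjusted p = 0.117 and 0.218).

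The next comparison asked what sucrose added, HFCSD against HFCD. CXCL10 had the lower mean with HFCSD in all 4 pairs of groups, with changes of -1.30 ± 0.74 at 10 weeks, -0.52 ± 0.90 at 19 weeks, -1.04 ± 0.66 at 27 weeks and -0.99 ± 0.94 in white blood cells. The adjusted p were 0.809, 1, 0.461 and 1, and the groups overlapped in each. CCL4 had a lower mean with HFCSD too, by -0.72 ± 0.31 at 10 weeks (adjusted p = 0.809, 3 of 4 arrays below every HFCD array) and by -0.51, -0.15 and -0.41 in the later groups.

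By limma 0 of 24 member tests passed, and 1 had an unadjusted p under 0.05, that of CCL4 at 10 weeks. Of all probes, 1.55% to 12.5% per comparison had such a p. Over all probes limma called 0% at 10 weeks, 0% at 19 weeks, 0.0111% at 27 weeks and 0% in white blood cells. Median changes of the members were -0.67, -0.16, -0.35 and -0.41, against -0.10, 0.09, -0.15 and 0.00 for all probes tested. CCL3L1 changes were -0.67, 0.03, 0.28 and -0.59. None of the probes of the 4 chemokine lists passed.

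White blood cells were then compared with whole blood of the same diet at 27 weeks. CXCR4 rose in white blood cells of all 3 diets, 2.38-fold to 2.94-fold. The dimmer CCL5 probe passed in HFCSD pigs, but it was tested only because it was bright in the group where it was high, and the brighter CCL5 probe did not pass. CXCL10 means were 2.83-fold to 3.62-fold higher in white blood cells without passing. CCL3L1 and the brighter CCL5 probe had changes on both sides of zero. Sample type went with the RNA kit, the slides and the scan day, and these cannot be told apart.

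Of 18 member tests 4 passed, 3 of CXCR4 and that of the dimmer CCL5 probe, and 7 had an unadjusted p under 0.05. Of all probes 52.4%, 54.7% and 63.5% had such a p in control, HFCD and HFCSD pigs. In control pigs 1 of 5 member probes passed against 45.3% of all probes tested, in HFCD pigs 1 of 6 against 47.5%, and in HFCSD pigs 2 of 7 against 58.8%. Median changes of the members were 0.70, 1.04 and 1.44, against 0.17, 0.19 and 0.42 over all probes. With scaling to the 75th percentile those medians over all probes were 0.30, 0.38 and 0.50, so part of each change hangs on the scale.

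CXCR4 read 8.87, 8.94, 9.59 and 7.82 in whole blood of control pigs at 27 weeks and 11.35, 10.33, 10.30 and 9.47 in their white blood cells. In HFCD pigs whole blood read 8.96, 8.09 and 8.53 and white blood cells 10.10, 9.91, 9.90 and 9.21. In HFCSD pigs they read 7.59, 8.52 and 8.41, and 8.53, 9.98, 9.93 and 10.02. White blood cell arrays were above every whole blood array in 3 of 4 control pigs' samples, 4 of 4 of HFCD and 4 of 4 of HFCSD, the last by 0.01 for replicate 1. The changes were 1.56 ± 0.42 (adjusted p = 0.0052), 1.25 ± 0.45 (adjusted p = 0.0287) and 1.44 ± 0.45 (adjusted p = 0.0108). The HFCD call was lost without the filter on dim probes (adjusted p = 0.0578) and without any 1 of 5 arrays (up to 0.128), and the HFCSD call without whole blood replicate 1 (0.0708). The HFCSD call was also lost with the percentage of bright spots as a covariate (0.60, adjusted p = 0.445), whose range over alternatives was 0.00273 to 0.445.

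The dimmer CCL5 probe read 4.66, 6.50, 6.07 and 5.85 in white blood cells of HFCSD pigs and was not well above background in their whole blood. All 4 white blood cell arrays were above every whole blood array, at least 2.78-fold by the bound. The probe entered its test only through the white blood cells, so its change and p are not given. With the percentage of bright spots as a covariate the probe did not pass. In white blood cells of control pigs this probe read 5.83, 4.76 and 6.01 on 3 arrays and was dim on 1, and in HFCD pigs 6.0, 6.80 and 6.24 on 3 and was dim on 1, so neither was tested. The brighter CCL5 probe did not show this step: its changes were -0.29 ± 0.43, 0.42 ± 0.47 and 0.65 ± 0.47 with adjusted p of 0.602, 0.481 and 0.241. In HFCSD pigs it read 9.15, 9.81 and 8.86 in whole blood and 9.46, 10.10, 9.92 and 10.21 in white blood cells, which overlap. The probes of CCL5 thus disagreed on this comparison. Group means of the dimmer probe were 5.77 ± 0.79 SD, 5.22 ± 2.27 and 4.77 ± 1.62 in white blood cells of HFCSD, HFCD and control pigs. They lay between 1.99 and 2.84 in whole blood, where 5 of 33 arrays were well above background, so the gap between the sample types was not read as a distance.

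CXCL10 changes were 1.86 ± 0.84 in control pigs, 1.50 ± 0.91 with HFCD and 1.55 ± 0.91 with HFCSD, with adjusted p of 0.0793, 0.181 and 0.15. White blood cell arrays were above every whole blood array in 2, 3 and 3 of 4 samples. In control pigs the adjusted p was 0.0414 with scaling to the 75th percentile (change 2.08), and the change passed without whole blood control replicate 1 (2.33, 0.0433), white blood cells of control replicate 4 (2.27, 0.0473) or those of HFCD replicate 2 (0.0393). The dimmer probe had 1.92 ± 1.11 with HFCD (adjusted p = 0.16) and did not pass with HFCSD. In HFCSD whole blood it was well above background on 1 of 3 arrays, so its calls there in some alternatives were taken against a mostly dim group, and no change is given.

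CCL4 read 8.51, 7.59, 8.0 and 6.97 in white blood cells of control pigs, 8.07, 9.19, 7.82 and 7.87 in those of HFCD pigs and 7.73, 7.82, 7.89 and 7.85 in those of HFCSD pigs. Each HFCD array was above every HFCD whole blood array, and the others overlapped. Its changes were 0.70 ± 0.34, 0.72 ± 0.36 and 0.46 ± 0.36 (adjusted p = 0.0943, 0.107 and 0.281). The control change passed without white blood cells of control replicate 4 (0.97, adjusted p = 0.0247). The HFCD change passed with scaling to the 75th percentile (0.92, adjusted p = 0.0475) and with the percentage of bright spots as a covariate (0.82, adjusted p = 0.0391). CCL3L1 changes were 0.13, 0.82 and -0.05, with adjusted p of 0.841, 0.194 and 0.937. Without whole blood of HFCD replicate 2 the HFCD change was 1.40 and passed (adjusted p = 0.0455). CCL2 probe A_72_P035346 passed only where dim probes were let in, in control pigs by the weaker presence flag or without a filter and in HFCD pigs without a filter. It was well above background on 0 whole blood arrays and on 1 and 2 of 4 white blood cell arrays of these groups, so these calls compare background and no change is given.

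Of other ligands, 7 of 13 probes passed higher in white blood cells of control pigs, 6 of 13 with HFCD and 6 of 12 with HFCSD, against 1, 2 and 3 lower. Over all probes 4642 of 19022, 4955 of 19414 and 7310 of 19689 passed higher and 3981, 4273 and 4259 lower. Both probes of CXCL8, which attracts neutrophils, and both of CXCL2 passed higher in each diet. They were well above background on all 12 white blood cell arrays. In whole blood at 27 weeks those of CXCL8 were so on 2 and 3 of 4 control arrays, 0 and 1 of 3 HFCD and 0 of 3 HFCSD arrays, and those of CXCL2 on 2 and 0 of 4 control arrays and on none of either diet. They were thus tested only through the group where they were high, and such probes are part of the counts here. Of the receptors, 4 of 15, 4 of 14 and 5 of 15 probes passed lower and 1, 0 and 0 higher. CCR4 passed lower in each diet. In white blood cells of control and HFCD pigs it was well above background on 0 and 1 of 4 arrays. In these diets it was thus tested only through whole blood, where it was high, and no change of CCR4 is given. XCR1 changes were -2.31, -3.48 and -4.16, while CXCR4 itself was higher. Signalling probes passed higher in 8 of 13, 8 of 13 and 9 of 14 and lower in none, with RGS1 up by 4.70, 5.49 and 4.94. Inducer probes passed higher in 10, 8 and 10 of 22 and lower in 0, 1 and 2. The probes of MYD88 disagreed in HFCSD pigs. The 1 that was bright on every array had -2.57, and the 1 that passed higher was dim on all 3 whole blood arrays.

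The cells in both sample types were checked with marker lists. CD3D, CD3E and CD8A of T cells, and CD14 and LYZ of monocytes each had a probe well above background on all 45 arrays, and all 6 platelet probes were well above background in white blood cells. Haemoglobin (HBA, 1 of 8 erythroid genes) was well above background on 1 of 45 arrays, so its probe gave no measure of red cells. T cell probes passed higher in white blood cells in 9, 6 and 9 of 12 tested and natural killer and cytotoxic probes in 2 of 3 in each diet. Monocyte probes passed higher in 4 of 13, 3 of 12 and 3 of 12. Beside these counts, 4642 of 19022, 4955 of 19414 and 7310 of 19689 of all probes passed higher in control, HFCD and HFCSD pigs. The neutrophil gene PGLYRP1 changed by -3.29, -2.77 and -3.79, 1 of 4 neutrophil probes in each diet. The other 3 did not pass, and their means over all diets in whole blood at 27 weeks and in white blood cells were 13.09 and 13.64 for MMP9, 6.39 and 6.83 for ELANE and 11.07 and 11.15 for LTF. The platelet probes did not pass. Their part in the members' changes was not tested.

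Summed over its list, the T cell signal (7 of 11 genes, CD3D 48.6%) had log2 group means from 12.68 to 13.63. Each percentage here is the part of the summed signal from a probe of the named gene. It also depends on how strongly that probe binds, so genes are not ranked by abundance. The monocyte sum (5 of 8 genes, LYZ 51.2%) ran from 13.56 to 14.87 and the natural killer and cytotoxic sum (3 of 11 genes, GNLY 96.6%) from 14.24 to 15.52. Neutrophil sums (4 of 12 genes, MMP9 79%) lay between 13.30 and 14.38. The dendritic sum (2 of 5 genes, XCR1 98.6%) ran from 6.12 to 10.53 and was lowest in the white blood cell groups. Platelet sums (5 of 8 genes, PF4 44.2%) lay between 13.23 and 15.10 by group. Single white blood cell arrays ranged from 10.34, in HFCD replicate 2, to 16.29.

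Markers also differed between the diet groups, without passing. At 19 weeks 6 of 11 T cell probes had an unadjusted p under 0.05 in each diet, against 12.5% and 11.9% of all probes, with list medians of 0.66 for HFCD and 0.75 for HFCSD. Platelet list medians in whole blood at 10, 19 and 27 weeks were -0.85, -1.73 and -1.09 with HFCD and -0.07, -0.51 and -1.26 with HFCSD, and in white blood cells -1.07 and -0.44. Of 6 platelet probes, 5, 1 and 1 with HFCD and 0, 0 and 3 with HFCSD had an unadjusted p under 0.05 in whole blood at these periods, and 0 in white blood cells of either diet. Of all probes 10%, 12.5% and 5.55% with HFCD and 1.73%, 11.9% and 32.2% with HFCSD had such a p in whole blood. The 7 lowest platelet sums of the 45 arrays were these. In whole blood at 19 weeks HFCD replicates 1 and 4 had 11.83 and 11.75 and HFCSD replicate 2 had 13.14, and their CXCL10 levels were 13.60, 10.07 and 11.36. In whole blood at 27 weeks HFCSD replicate 3 had 12.37, with CXCL10 at 9.98. White blood cells of control replicate 1 had 11.28, of HFCD replicate 2 10.34 and of HFCSD replicate 4 13.12, with CXCL10 at 9.02, 14.09 and 10.77. The monocyte sum at 19 weeks was 13.78 ± 0.43 in controls, 13.67 ± 0.58 with HFCD and 14.20 ± 0.35 with HFCSD. Their part in the CXCL10 and CCL3L1 changes was not tested.

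Feeding periods in whole blood were compared within each diet, later against 10 weeks. CXCR4 fell in control and in HFCSD pigs at both later periods, by 2.35-fold to 3.58-fold. CCL4 rose in the same diets at 27 weeks, 1.94-fold in control and 2.64-fold in HFCSD pigs. In HFCD pigs the CXCR4 changes of -1.20 and -1.21 and the CCL4 change of 0.83 at 27 weeks did not pass (adjusted p = 0.0751, 0.117 and 0.159). Each period was scanned on its own days and slides and the pigs were older, so period, age, scan day and slide cannot be told apart.

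Of 33 member tests 6 passed and 16 had an unadjusted p under 0.05. Of all probes 25.3% and 35.5% in control pigs had such a p at 19 and 27 weeks. The shares were 27.4% and 20.5% in HFCD and 24.7% and 26.8% in HFCSD pigs. In control pigs 1 of 5 member probes passed at 19 weeks against 12% of all probes tested, and 2 of 5 at 27 weeks against 20.7%. For HFCD limma called 0 of 6 at 19 weeks against 6.91% and 0 of 6 at 27 weeks against 5.6%, with 2 of each at an unadjusted p under 0.05. For HFCSD 1 of 6 passed at 19 weeks against 7.17% and 2 of 5 at 27 weeks against 10.3%. The methods' t-test was run for diet against control only. Members' median changes were 0.54 and 0.95 in control, 0.19 and 0.81 in HFCD and 0.60 and 1.12 in HFCSD pigs, against -0.11 to 0.08 over all probes.

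CXCR4 in whole blood at 10 weeks read 10.57, 9.47, 10.23 and 9.88 in control pigs, 9.47, 9.56, 9.53 and 10.38 in HFCD pigs and 10.04, 9.82, 9.87 and 10.32 in HFCSD pigs. At 19 weeks it read 9.46, 8.07, 7.86 and 7.58 in control pigs, 9.32, 8.89, 7.99 and 7.95 in HFCD pigs and 8.61, 9.35 and 7.50 in HFCSD pigs. All 11 arrays at 19 weeks were below every array of their diet at 10 weeks, though in control pigs 9.46 and 9.47 nearly met. The control change at 19 weeks was -1.79 ± 0.42 (3.47-fold lower, adjusted p = 0.00475), the HFCSD change -1.53 ± 0.45 (2.89-fold, adjusted p = 0.0381) and the HFCD change -1.20 ± 0.42 (2.29-fold, adjusted p = 0.0751). At 27 weeks the changes were -1.23 ± 0.42 in control (2.35-fold, adjusted p = 0.0367, 3 of 4 arrays below), -1.84 ± 0.45 in HFCSD (3.58-fold, adjusted p = 0.0108, 3 of 3) and -1.21 ± 0.45 in HFCD pigs (2.31-fold, adjusted p = 0.117, 3 of 3).

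Some of these calls hung on the settings. The control call at 27 weeks was lost with scaling to the 75th percentile (adjusted p = 0.0566), without a filter on dim probes (0.0747) and with slide as a random block (0.0759), in a range of 0.0129 to 0.0759 over alternatives. The HFCSD call at 19 weeks was lost with the 75th percentile (0.0512), the weaker presence flag (0.0519) and no filter (0.0841). It was also lost with the slide as a random block (0.0579) and with replicate number as a block (0.0612), in a range of 0.0313 to 0.0841. The control call at 19 weeks and the HFCSD call at 27 weeks passed in all 9 alternatives. Leaving out 1 array ended the control call at 27 weeks for 6 arrays (adjusted p up to 0.14), the HFCSD call at 19 weeks for 6 (up to 0.363) and that at 27 weeks for 1 (0.0849). The HFCD change at 19 weeks passed without HFCD replicate 1 (-1.46, adjusted p = 0.0323) or control replicate 1 (0.0486) of 19 weeks.

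By mean, CXCR4 was highest in white blood cells of control pigs (10.36 ± 0.77 SD), followed by whole blood at 10 weeks of control (10.04 ± 0.47), HFCSD (10.02 ± 0.22) and, after white blood cells of HFCD pigs (9.78 ± 0.39), of HFCD pigs (9.73 ± 0.43). White blood cells of HFCSD pigs (9.61 ± 0.73) closed this upper set, 0.81 above the next group. Single group levels moved by up to 0.65 under the other scaling, and a gap between 2 groups could move by more, so this split holds for the scale used. The lower set held control whole blood at 27 weeks (8.81 ± 0.73), HFCD at 19 (8.54 ± 0.68) and 27 weeks (8.53 ± 0.43), HFCSD at 19 weeks (8.48 ± 0.93), control at 19 weeks (8.24 ± 0.84) and HFCSD at 27 weeks (8.17 ± 0.51). By these means white blood cells at 27 weeks stood with whole blood at 10 weeks. The 2 sets differed in RNA kit, slides, scan day and age, which cannot be told apart.

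CCL4 in whole blood at 10 weeks read 5.92, 6.95, 5.60 and 5.96 in control pigs, 6.54, 6.74, 7.19 and 6.25 in HFCD pigs and 5.90, 6.53, 5.57 and 5.83 in HFCSD pigs. At 27 weeks it read 7.46, 7.44, 7.01 and 6.34 in control pigs, 7.53, 7.25 and 7.76 in HFCD pigs and 7.08, 7.87 and 7.13 in HFCSD pigs. All diet arrays at 27 weeks were above every array of their diet at 10 weeks, as were 3 of 4 control arrays. The changes were 0.95 ± 0.32 in control (adjusted p = 0.0337), 1.40 ± 0.34 in HFCSD (adjusted p = 0.0105) and 0.83 ± 0.34 in HFCD pigs (1.78-fold, adjusted p = 0.159). The control call was lost with normexp correction (change 0.58, adjusted p = 0.0541), no filter (0.0673), the percentage of bright spots as a covariate (0.0851) and slide as a random block (0.0504), in a range of 0.0111 to 0.0851. It was also lost without any 1 of 6 arrays (up to 0.113), and the HFCSD call without HFCSD replicate 2 of 27 weeks (0.0694). At 19 weeks CCL4 read 6.62, 6.18, 6.07 and 6.33 in control pigs, 6.37, 6.50, 6.92 and 6.97 in HFCD pigs and 6.39, 6.85 and 5.31 in HFCSD pigs, with changes of 0.19, 0.01 and 0.23 from 10 weeks.

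The order of CCL4 means ran without a gap beyond the spread from white blood cells of HFCD pigs (8.24 ± 0.64 SD), HFCSD pigs (7.82 ± 0.07) and control pigs (7.76 ± 0.65) through whole blood at 27 weeks of HFCD (7.52 ± 0.25), HFCSD (7.36 ± 0.44) and control pigs (7.06 ± 0.52). HFCD whole blood at 19 (6.69 ± 0.30) and 10 weeks (6.68 ± 0.40), control at 19 weeks (6.30 ± 0.24), HFCSD at 19 weeks (6.18 ± 0.79), control at 10 weeks (6.11 ± 0.59) and HFCSD at 10 weeks (5.96 ± 0.41) completed it.

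CCL5 by its brighter probe read 7.47, 9.38, 7.47 and 8.24 in control whole blood at 10 weeks and 9.56, 10.49, 8.96 and 9.69 at 27 weeks, 3 of 4 of them above every earlier array. The change was 1.53 ± 0.59 (2.89-fold, adjusted p = 0.0621), and it passed with scaling to the 75th percentile (adjusted p = 0.0437) and in the fit of all 45 arrays (0.0442). It also passed without control replicate 2 (1.95, 0.0313) or HFCD replicate 4 (0.0346) of 10 weeks or HFCD replicate 1 of 19 weeks (0.0438). With replicate number as a block it passed too (0.0089). HFCD and HFCSD changes at 27 weeks were 0.89 ± 0.63 and 1.02 ± 0.63 (adjusted p = 0.455 and 0.308), and at 19 weeks the 3 diets had 0.54, 0.37 and 0.97. Group means ran without a gap beyond the spread from 10.03 ± 1.07 SD in white blood cells of HFCD pigs, 9.92 ± 0.33 in those of HFCSD pigs and 9.67 ± 0.63 in control whole blood at 27 weeks. They went on with HFCD at 27 weeks (9.61 ± 0.83), white blood cells of control pigs (9.38 ± 0.07), HFCSD at 27 (9.28 ± 0.49) and 19 weeks (9.23 ± 0.91) and HFCD at 19 weeks (9.09 ± 0.92). The last were HFCD at 10 (8.72 ± 1.32), control at 19 (8.68 ± 0.83), HFCSD at 10 (8.26 ± 0.68) and control at 10 weeks (8.14 ± 0.90).

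With all arrays of the separate fits in place and no block, CCL3L1 and CXCL10 did not pass between periods. With replicate number as a block, CCL3L1 passed in control pigs at 19 and 27 weeks (adjusted p = 0.0226 and 0.0365). CCL3L1 control arrays at 19 weeks were all above those at 10 weeks (1.26 ± 0.45, 2.4-fold, adjusted p = 0.0647), and 3 of 4 were at 27 weeks (1.06 ± 0.45, adjusted p = 0.0921). The HFCSD arrays at 27 weeks were also all above those at 10 weeks (1.25 ± 0.49, 2.37-fold, adjusted p = 0.0967), while HFCD changes were -0.69 and 0.30. With normexp correction the control change at 19 weeks was 0.84 and passed (adjusted p = 0.0321). The control change at 19 weeks also passed without control replicate 2 (1.54, 0.0345) or HFCD replicate 4 of 19 weeks (0.0417) or HFCD replicate 2 of 27 weeks (0.0443), and that at 27 weeks without control replicate 2 of 27 weeks (1.40, 0.0349). CXCL10 changes at 19 weeks were 0.70 ± 0.80 in control, 1.76 ± 0.80 in HFCD and 2.54 ± 0.86 in HFCSD pigs (adjusted p = 0.654, 0.156 and 0.0688), and at 27 weeks 0.90, 0.86 and 1.12. The HFCSD change at 19 weeks passed without HFCSD replicate 1 (3.37, 0.0321) or HFCD replicate 1 (0.0282) of 19 weeks.

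Of the other lists, CCR7, which guides lymphocytes to lymph nodes, fell at 27 weeks in all 3 diets, by -1.80 in control, -1.86 in HFCD and -1.43 in HFCSD pigs (adjusted p = 0.00256, 0.0118 and 0.0359). Receptor probes passed lower in 0 and 3 of 14 in control, 1 and 1 in HFCD and 0 and 1 in HFCSD pigs at 19 and 27 weeks. Over all probes, 1263 of 16914 and 1461 of 17140 passed lower in control pigs. In HFCD pigs 914 of 17759 and 735 of 18862 did, and in HFCSD pigs 412 of 17174 and 1100 of 16461. By limma 0 ligand probes passed in the 6 comparisons, and 2 of these tests had an unadjusted p under 0.05. Signalling probes passed lower in 2 of 12 and 4 of 11 in control pigs, with RGS1 at -1.73 and -1.25 (1 other passed higher at 27 weeks), and 2 of 12 and 0 of 12 in HFCD and 2 of 11 and 0 of 12 in HFCSD pigs. Inducer probes passed lower in 2 and 4 of 19 in control, 3 and 1 of 21 in HFCD and 1 and 0 of 20 in HFCSD pigs.

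Among the cell lists, T cell probes passed lower in 6 and 5 of 11 in control pigs at 19 and 27 weeks. The counts were 1 and 3 of 12 in HFCD and 0 and 2 of 11 in HFCSD pigs, beside the lower CXCR4 levels. Of all probes, 1263 of 16914 and 1461 of 17140 passed lower in control pigs. The counts over all probes were 914 of 17759 and 735 of 18862 in HFCD and 412 of 17174 and 1100 of 16461 in HFCSD pigs. KLRK1, of natural killer and cytotoxic cells, passed higher in control (2.15) and HFCD pigs (1.82) at 27 weeks and in HFCD (1.74) and HFCSD pigs (2.29) at 19 weeks. PRF1 of the same list was tested in HFCD and HFCSD pigs and did not pass, with whole blood means over all diets of 5.04, 4.17 and 4.15 at 10, 19 and 27 weeks. CD86, of monocytes, passed higher in control pigs at 27 weeks (0.64, adjusted p = 0.0422), as did 2085 of 17140 of all probes. Other monocyte probes went both ways in whole blood means over all diets at 10 and 27 weeks. CD14 read 6.45 and 5.56 by A_72_P088666 but 9.73 and 10.07 by A_72_P050971. CD68 read 11.55 and 11.23 by A_72_P231802 but 9.53 and 10.25 by A_72_P295799. No neutrophil, platelet or dendritic probe passed by limma, and 2 of these tests had an unadjusted p under 0.05. Their part in the CXCR4 and CCL4 changes was not tested.

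**Figure D3:**
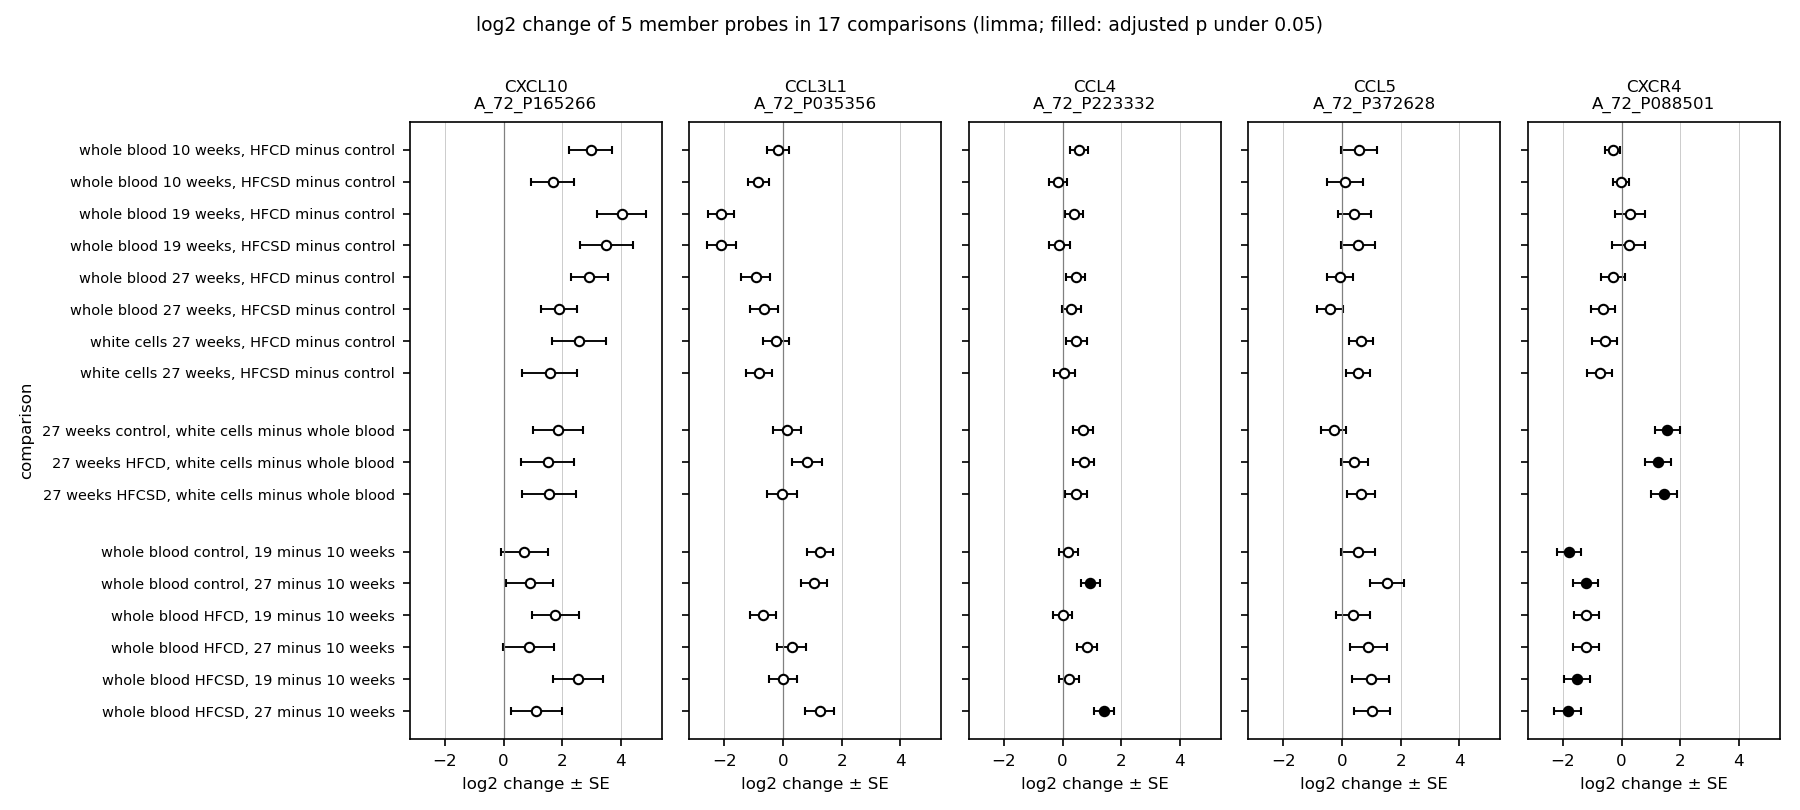
Log2 change of the brighter CXCL10 and CCL5 probes and the probes of CCL3L1, CCL4 and CXCR4 (horizontal axes, with 1 standard error either side) in the comparisons of diet, sample type and feeding period, filled where the test passed. The filled points are 7 of CXCR4 and 2 of CCL4 in the comparisons of sample type and feeding period, and CXCL10 reaches 4.03 without passing.

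Whether the diet changes themselves differed between periods or sample types was tested directly. For CXCL10 the diet change at 19 weeks exceeded that at 10 weeks by 1.06 ± 1.13 with HFCD and by 1.84 ± 1.18 with HFCSD (adjusted p = 0.811 and 0.907), and the differences at 27 weeks were -0.05 and 0.21. Between white blood cells and whole blood they were -0.36 ± 1.24 and -0.31 ± 1.24 (adjusted p = 1 and 0.911). The CCL3L1 change with HFCD was lower at 19 than at 10 weeks by -1.96 ± 0.64 (adjusted p = 0.419), and with HFCSD by -1.27 ± 0.66 (adjusted p = 0.9). The differences ran from -0.24 to 0.45 for CCL4, from -0.64 to 0.94 for the brighter CCL5 probe and from -0.61 to 0.60 for CXCR4.

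By limma 0 of 36 member tests passed, and 1 had an unadjusted p under 0.05, that of CCL3L1 with HFCD at 19 weeks. Of all probes, 1.33% to 19.2% per comparison had such a p. Over all probes limma called 0% for HFCD at 27 against 10 weeks, 0% for HFCD at 19 weeks, 0% for HFCSD at 27 weeks and 0% for HFCSD at 19 weeks. Between sample types it called 0% for HFCD and 1.38% for HFCSD. None of the members' diet changes was thus shown to differ between periods or sample types.

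How the members varied together was described over the 45 arrays, after the mean of each combination of sample type and feeding period was subtracted. Groups of a diet shared controls and diet itself within these residuals, so the correlations are given with no p. The CXCL10 probes followed each other with a Pearson correlation of 0.951. CXCL10 correlated at 0.407 with CCL4, 0.413 with CCL5 and -0.5 with CCL3L1, and at -0.0429 with CXCR4. CCL4 and CCL5 correlated at 0.448, while CCL3L1 and its chromosomal neighbour CCL4 had -0.12.

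Among 1799 named probes, those most like CXCL10 by this measure were RSAD2 (0.914), FCGR1A (0.91) and MX1 (0.844), and the dimmer CXCL10 probe led to the same 3 genes. CCL3L1 was most like PGK1 (0.768), ABHD5 (0.745) and ST3GAL4 (0.744). For CCL4 they were IFIH1 (0.697), NCOA1 (0.655) and STAT2 (0.653), and for CCL5 NR4A3 (0.687), GNLY (0.634) and HOPX (0.626). CXCR4 was most like PPP2CA (0.775), LYZ (0.764) and SDHD (0.748).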

How the data were processed

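RNA from whole blood or filtered white blood cells was measured on 45 one-colour Agilent porcine arrays of 45220 spots, of which 43803 carried 43603 probes. The deposited raw files hold processed signal intensities that were made, per the file headers, with Feature Extraction 10.5.1.1 with spatial and multiplicative detrending and no local background correction. The labels name version 9.5.3.1. The series table holds intensities that the authors quantile normalized in GeneSpring, per the labels. It correlated with the array files at 0.9928 to 0.9999 on the log2 scale, and how it was centred is not stated.

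Log2 processed signals of all 45 arrays were quantile normalized together, outlier spots (1 to 31 per array) were left out and spots of a probe were averaged. A probe was tested when it was well above background on every usable array of at least 1 group compared. Comparisons were made with limma 3.58.1 in R 4.3.3, in 6 separate fits for 27 comparisons, with Benjamini-Hochberg adjustment over all probes tested. The steps were tested on simulated data. Between 15494 and 23344 spots per array were well above background.

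The members and lists were chosen with earlier results of these data known. The genes named are the members by every probe. Named too are genes of other chemokine, receptor, signalling and inducer lists that passed, or at most 4 with the largest changes. The others are the brightest and defining genes of cell lists, and the 3 named genes most correlated with a member seen on at least 23 arrays. Alternatives were other scaling, background correction, presence flags and filters, the series table, 1 fit of all arrays, a covariate, blocks for slide, scan day and replicate number, and each array left out. The slide as a fixed block was chosen after the values had been seen. Results of some list genes are not reported here.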

Additional observations from a re-analysis of the deposited data

Results flagged for a closer look

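Of 48 groups of 4 samples in which a member probe was well above background on every array, 3 had 1 sample far from the others, measured as its gap to the nearest sample over the group's whole range against Dixon's critical value. Chance picks about 1 in 20 groups. In whole blood of HFCD pigs at 10 weeks, replicate 4 had a low CCL5 level of 6.77 (A_72_P372628, value 0.835) and a high CXCR4 level of 10.38 (value 0.902). In white blood cells of HFCSD pigs, replicate 1 had a low CXCR4 level of 8.53 (value 0.934). Of 36 tests of a difference between changes, limma called 0, with 1 at an unadjusted p under 0.05.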

How the results depend on the processing

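The count of member probes that passed in diet against control was 0, and it stayed 0 in 12 of 14 alternatives. It was 6 with all 45 arrays in 1 fit and 10 by the methods' t-test with an unadjusted p and a fold of 2, and the cause was not tested. In feeding period the count of 6 was 3 without a filter on dim probes and 3 with slide as a random block, and 5 to 8 otherwise, and the cause was not tested. In white blood cells against whole blood the count of 4 was 3 to 6 over alternatives. For HFCSD against HFCD and for differences between changes it was 0 throughout.

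Leaving out single arrays gave counts of 0 to 0 for diet against control, 0 to 0 for HFCSD against HFCD, 3 to 8 for white blood cells against whole blood, 4 to 9 for feeding period and 0 to 0 for differences. Without white blood cells of control replicate 4 the count for white blood cells against whole blood was 8. The CXCR4 call in white blood cells passed in 22 of 22 refits in control, 17 of 22 in HFCD (adjusted p 0.0174 to 0.128) and 21 of 22 in HFCSD pigs. The call of the dimmer CCL5 probe passed in 22 of 22, but the probe was tested only through its high group, so this count is a description and not a measure of stability. The CXCR4 calls at 19 and 27 weeks passed in 33 and 27 of 33 in control and in 27 and 32 of 33 in HFCSD pigs, and those of CCL4 at 27 weeks in 27 and 32 of 33.

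Replicate numbers were not taken to pair the samples, since not every pair of equal numbers correlated over 0.1. A few noisy arrays are enough to fail this rule, so it cannot show that equal numbers mark different pigs. Correlations over 0.1 were seen in 16 of 43 pairs between diets, 19 of 31 between periods and 5 of 10 between sample types. In HFCSD whole blood all 3 pairs were over 0.1 between 27 weeks and each earlier period, and 1 of 3 was between 10 and 19 weeks. With the replicate block the counts were 0 for diet against control, 0 for HFCSD against HFCD, 4 for white blood cells against whole blood, 8 for feeding period and 0 for differences. With it CCL3L1 passed in control pigs at 19 weeks (adjusted p = 0.0226) and 27 weeks (0.0365) and CCL5 at 27 weeks (0.0089), and the CXCR4 call of HFCSD pigs at 19 weeks was lost (0.0612).

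Of 1162 values of the 46 diet changes under alternatives and left-out arrays, 1120 kept their direction and side of the threshold, 16 came to pass in the same direction and 26 turned direction without passing. Scan day and slide as fixed blocks were not run for sample type or feeding period, since they could not be fitted. Signal over background limited CCL2, the dimmer CXCL10 probe and the dimmer CCL5 probe, which were seen on 3, 27 and 15 arrays at most.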
